A study of Mus musculus with 24 samples.

Results

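The genes that copy DNA and drive cells through division were compared between hindlimb buds of Nipbl+/- and wild type mouse embryos at E10.5. A list of 51 genes was named by gene and not picked by the measured genotype difference, although earlier results of these data were known. Of these, 50 were measured among 19937 genes. Ccnb1, which encodes the mitotic cyclin B1, had no probe set with it as the only symbol and was not measured here. By phase, 40 of the measured genes act in DNA replication or at the G1/S boundary, and 10 act in G2 or mitosis. Both hindlimb buds of each embryo gave 1 RNA sample and 1 Affymetrix Mouse Gene 1.0 ST array, a chip whose probes lie along the whole transcript, with 12 wild type and 12 heterozygous embryos matched by stage. Heterozygous embryos carry 1 functional copy of Nipbl, which encodes the protein that loads cohesin onto chromosomes. The methods give the mice as the RRS strain, while the sources used here do not give the kind of allele. Embryos are named as biological replicates, so p-values measure the spread between embryos, taken as independent. The paper describes the embryos as littermates, but the labels do not name the litters, and litter was not modelled.

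Replication begins with licensing in G1, when Cdc6 and Cdt1 place the Mcm2 to Mcm7 ring on origins. D and E cyclins with their kinases then release E2F transcription factors, which switch on the genes of the replication machinery. In G2, a later program, which the DREAM complex represses earlier, is driven through B-Myb and Foxm1, and it supplies cyclin B, Cdk1 and the mitotic kinases. The mesenchyme of the early limb bud divides rapidly, and these transcripts are abundant in proliferating tissue.

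Each phase has known promoter elements, and these were counted in members already assigned to a phase by name. RefSeq promoter windows on GRCm38.p6, running from 250 bases before to 50 bases after the start of transcription, were found for 40 of the 51 genes. E2F factors bind cores searched here as TTTCGCGC, TTTGGCGC, TTTCCCGC or TTTGCCGC. The cell cycle homology region, or CHR, through which DREAM acts on late genes, was searched as TTTGAA or TTCGAA, and the NF-Y box as CCAAT. All were sought on either strand, TTCGAA reads the same on both, and no element contains another. An E2F core was found in 14 of 31 replication and G1/S promoters (45.2%) and in 1 of 9 G2/M promoters (11.1%). It was found in 3.48% of all measured genes with a window. These and the following shares count genes, with a match in any window of the gene. A CHR was found in 8 of 9 G2/M promoters (88.9%), in 7 of 31 replication and G1/S promoters (22.6%) and in 19% of those of measured genes. The NF-Y box stood in 9 of 9 G2/M promoters, in 20 of 31 replication and G1/S promoters (64.5%) and in 41.7% of those of measured genes. These shares are descriptions of letters and not of binding.

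**Figure D1:**
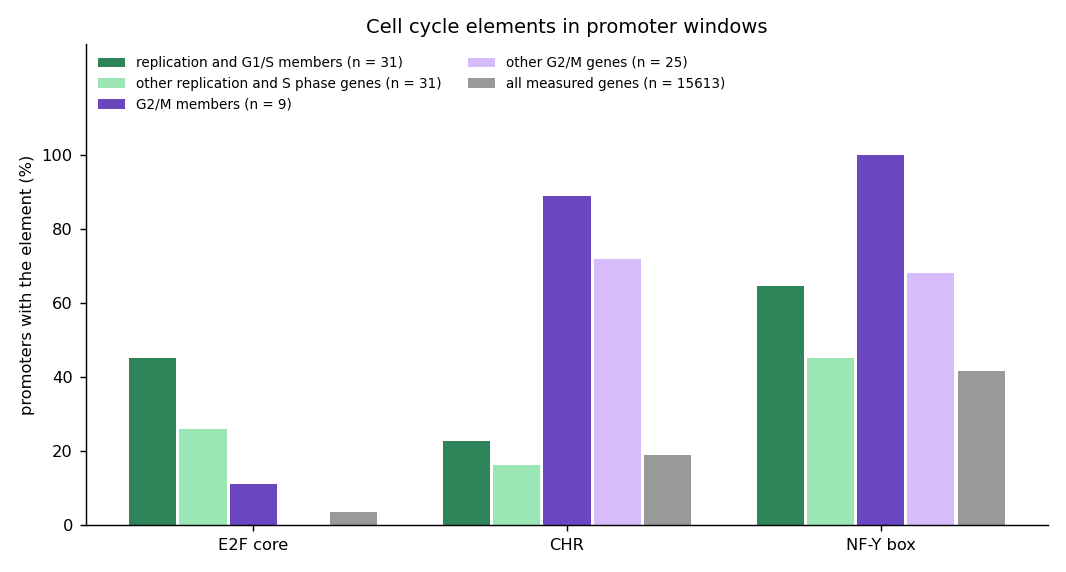
Share of genes with a promoter window, in percent, that hold an E2F core, a CHR or an NF-Y box in any window. Bars are for the members of each phase, other genes of the same phases and all measured genes, with the number of genes in the key. The E2F core stood in 45.2% of replication and G1/S members and the CHR in 88.9% of G2/M members, against 3.48% and 19% of measured genes.

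The 250 bases before the start are printed for 5 genes, in lower case with matches in capitals and read 5' to 3' on the strand of the gene. Mcm6, a subunit of the replicative helicase, shows the E2F arrangement of a replication gene (chr1:128359706-128359955, minus strand). Cdk1, the mitotic kinase, is the G2/M member with both an E2F core and CHR letters (chr10:69352913-69353162, minus strand), and Ccnb2, cyclin B2, has the NF-Y boxes of a mitotic gene (chr9:70421555-70421804, minus strand). Pcna (chr2:132253181-132253430, minus strand) and Ccne1 (chr7:38107491-38107740, minus strand) are shown because a probe set of each was called higher, as given below. For Pcna the other probe set did not pass, and whether the called one reports the gene with this promoter cannot be told.
Mcm6: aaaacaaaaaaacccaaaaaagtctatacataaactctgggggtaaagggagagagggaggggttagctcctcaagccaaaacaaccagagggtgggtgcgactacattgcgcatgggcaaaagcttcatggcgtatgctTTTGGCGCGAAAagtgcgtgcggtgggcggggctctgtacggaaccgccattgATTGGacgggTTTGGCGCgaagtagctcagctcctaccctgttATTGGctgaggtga
Cdk1: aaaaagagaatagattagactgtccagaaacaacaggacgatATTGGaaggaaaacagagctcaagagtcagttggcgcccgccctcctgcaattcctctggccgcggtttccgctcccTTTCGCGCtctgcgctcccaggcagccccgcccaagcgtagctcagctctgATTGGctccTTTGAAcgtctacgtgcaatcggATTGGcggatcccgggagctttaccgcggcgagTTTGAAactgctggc
Ccnb2: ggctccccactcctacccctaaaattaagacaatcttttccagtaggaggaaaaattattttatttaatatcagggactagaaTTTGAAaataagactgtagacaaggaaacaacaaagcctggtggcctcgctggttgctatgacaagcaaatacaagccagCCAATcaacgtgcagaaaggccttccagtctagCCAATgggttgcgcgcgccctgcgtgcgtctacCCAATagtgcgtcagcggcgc
Pcna: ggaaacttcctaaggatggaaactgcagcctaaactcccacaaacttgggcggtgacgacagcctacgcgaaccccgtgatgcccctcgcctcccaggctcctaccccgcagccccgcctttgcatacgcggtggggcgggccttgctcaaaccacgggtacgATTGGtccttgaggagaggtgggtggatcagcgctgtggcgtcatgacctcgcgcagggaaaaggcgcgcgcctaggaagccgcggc
Ccne1: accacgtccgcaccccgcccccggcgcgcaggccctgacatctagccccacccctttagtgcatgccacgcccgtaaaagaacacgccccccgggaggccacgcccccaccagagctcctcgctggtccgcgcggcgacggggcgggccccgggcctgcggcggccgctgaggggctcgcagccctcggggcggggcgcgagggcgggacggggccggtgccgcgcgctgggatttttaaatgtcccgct
In Mcm6, E2F cores begin at positions -110, -106 and -47 from the start, the first pair overlapping on opposite strands, with NF-Y boxes at -57 and -14. Cdk1 holds an E2F core at -131, CHR letters at -71 and -15, and NF-Y boxes at -208, -80 and -48. Ccnb2 has 3 NF-Y boxes, at -87, -54 and -21, and CHR letters at -167 and, past the printed stretch, 5 bases into the transcript. The window of Pcna holds 1 NF-Y box, at -87, and none of the E2F or CHR letters, and that of Ccne1 holds none of the 3 elements. Absence here means only that these exact letters are not in the window.

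The labels were borne out by Nipbl itself. Wild type embryos lay between 10.32 and 10.72 in log2 intensity and Nipbl+/- embryos between 9.54 and 9.97, so the groups did not overlap, and the ratio of Nipbl+/- to wild type was 0.63. Among 8 markers of limb mesenchyme, such as Prrx1 and Tbx4, the mean log2 intensity was 11.31 to 11.45 per wild type embryo and 11.29 to 11.46 per Nipbl+/- embryo, and Lhx9 rose (log2 difference 0.16, adjusted p = 0.00698 from limma). Of 8 ectoderm markers 4 lay above 0 and 4 below, with a median log2 difference of 0.011. Krt5 of that list fell (-0.31, adjusted p = 0.00171 from limma), and Epcam had the next smallest p in the other direction without passing (0.15, adjusted p = 0.254 from limma). Of 5 measured nerve and neural crest markers Erbb3 rose (0.25, adjusted p = 0.0499 from limma). None of the markers of endothelium (6), erythroid cells (6), macrophages (5) and muscle precursors (5) passed the threshold. Of all genes, 0.286% were called higher and 0.527% lower. By an unadjusted p under 0.05 from limma, 3 macrophage markers and 1 erythroid marker were lower and 1 muscle precursor marker was higher. Of all genes, 5.14% were lower and 4.13% higher by that p. The macrophage list averaged 6.48 to 6.78 per wild type embryo and 6.30 to 6.72 per Nipbl+/- embryo, with 5 of 5 genes below 0. By Xist and 3 Y-linked genes, 8 wild type and 3 Nipbl+/- embryos were female. On 3 arrays, 1 of wild type and 2 of Nipbl+/- embryos, the values were spread less widely than on the others (interquartile range 3.21 to 3.31 against 3.40 to 3.76). The part of cell makeup in the differences that follow was not tested, and in whole buds fewer cells of a type and less RNA per cell cannot be told apart.

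Of the 50 genes, each read by its brightest probe set, 2 were called higher and 0 lower in Nipbl+/- hindlimb buds, and most differed very little. The 2 were Pcna, the sliding clamp that holds polymerases on DNA, and Ccne1, which encodes cyclin E1, the partner of Cdk2 at entry into S phase. The Pcna call rests on 1 of its 2 probe sets, so it does not show that Pcna mRNA rose. The other, numbered among genes next to Pcna on chromosome 2, did not pass (log2 difference 0.057, adjusted p = 0.535 from limma). Calls were made with limma at a Benjamini-Hochberg adjusted p under 0.05 over all 19937 genes, by which 0.286% of all genes were called higher and 0.527% lower. By an unadjusted p under 0.05, 4 members (8%) were above wild type and 2 (4%) below, against 4.13% and 5.14% of all genes. The median log2 difference, Nipbl+/- minus wild type, was -0.0055 over the members and -0.0049 over all genes, with 22 members above 0 and 28 below. For 44 of the 50 the whole 95% interval of the log2 difference lay within 0.2 of 0, that is between 0.871-fold and 1.15-fold, as it did for 77.4% of all genes. The exceptions were Mcm3, Gins1, Pcna, Rfc3, Ccne1 and Ccne2. The members were brighter than most genes, with a median intensity percentile of 94.1. Their median standard error was 0.0385, against 0.0535 over all genes, so the 2 shares are not like for like. Both calls and the count of 0 lower also stood without the 3 arrays of narrowest spread.

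**Figure D2:**
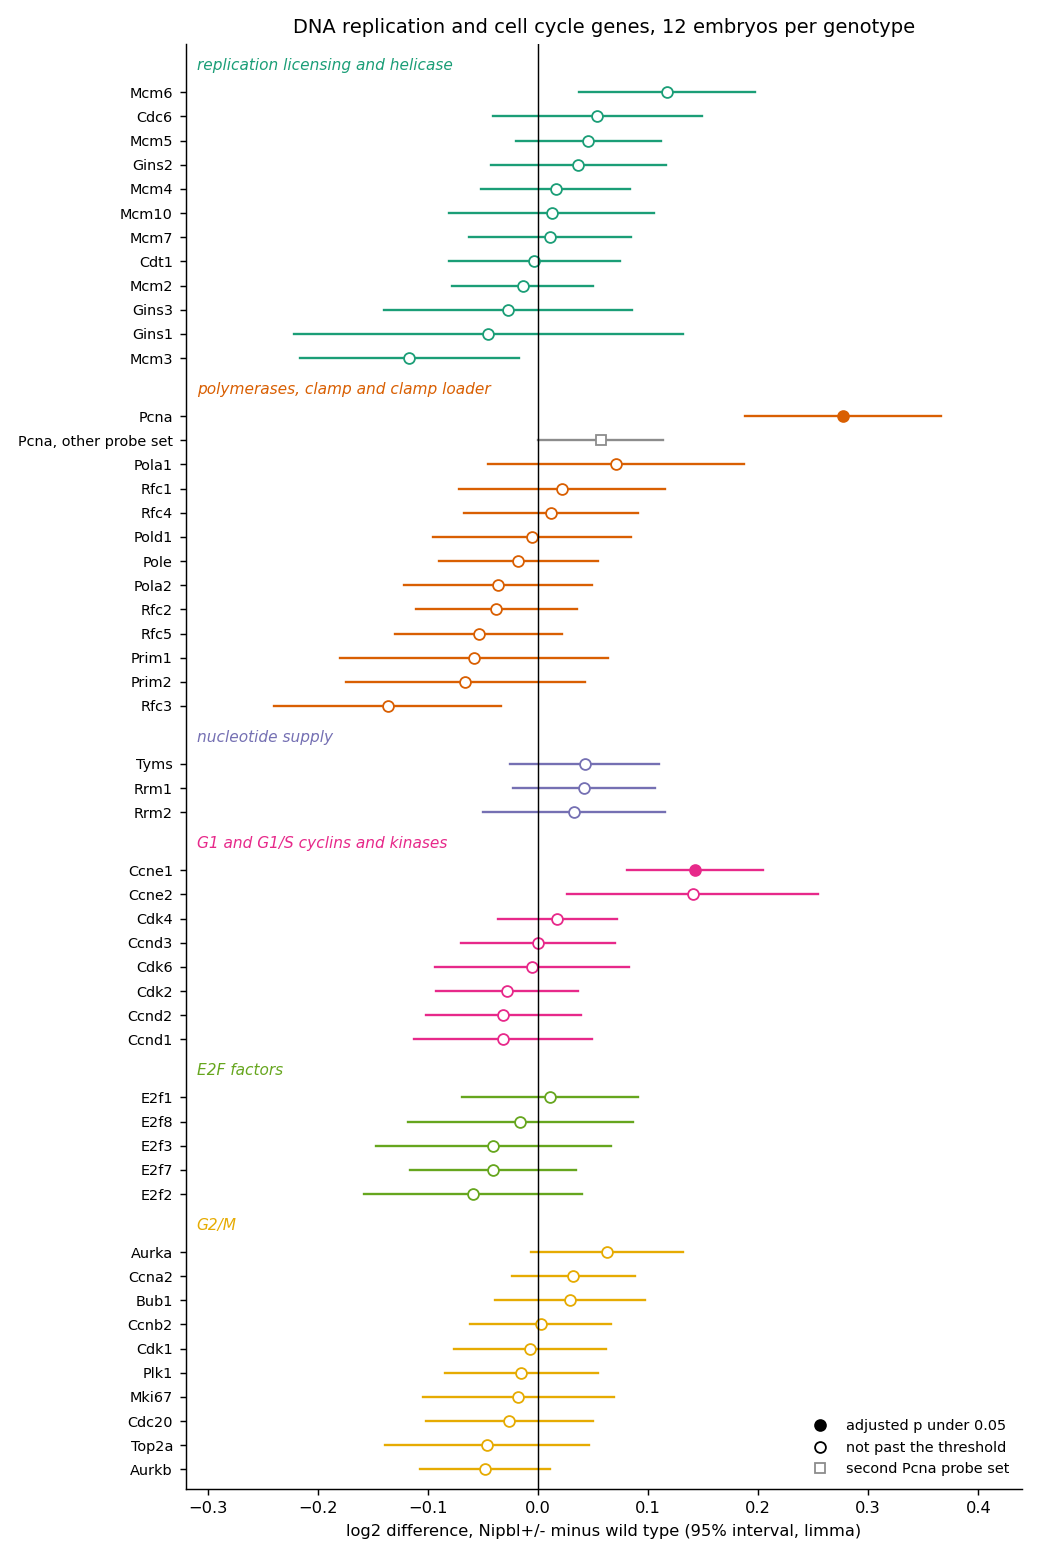
Log2 difference, Nipbl+/- minus wild type, of each of the 50 measured genes by role, with the 95% interval from limma as bars (12 embryos per genotype). Filled points passed an adjusted p under 0.05, and the open square is the other Pcna probe set, at 0.057 against 0.28 for the brighter one.

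In the licensing and helicase group, 0 of 12 genes passed the threshold, where 0.286% of all genes were called higher and 0.527% lower. The subunits of the Mcm ring did not share a direction. The median log2 difference of the group was 0.012, with 7 genes above 0 and 5 below. Mcm6 had a log2 intensity of 10.76 to 11.12 in wild type (median 11.02) and of 10.99 to 11.22 in Nipbl+/- embryos (median 11.10). The groups overlapped, although 11 of 12 Nipbl+/- embryos were above the wild type mean (log2 difference 0.12, standard error 0.039, unadjusted p = 0.00555, adjusted p = 0.217 from limma). Mcm3, another subunit of the same ring, ran from 10.97 to 11.34 in wild type (median 11.16) and from 10.71 to 11.13 in Nipbl+/- embryos (median 11.06). All 12 Nipbl+/- embryos were under the wild type mean, yet the lower part of the wild type range was shared (log2 difference -0.12, standard error 0.049, unadjusted p = 0.0232, adjusted p = 0.404 from limma). Its lowest value came from an array of narrow spread, and without those arrays the difference was -0.11 (adjusted p = 0.241 from limma). The other 4 ring subunits, Mcm2, Mcm4, Mcm5 and Mcm7, lay between -0.014 and 0.046, the highest being Mcm5 (adjusted p = 0.748 from limma). Of the loaders Cdc6 and Cdt1, the replication factor Mcm10 and the helicase cofactors Gins1, Gins2 and Gins3, the differences ran from -0.045 for Gins1 to 0.054 for Cdc6. Gins1 had the widest interval of the 50 genes, from -0.22 to 0.13, so a change of that size was not detectable there.

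Among polymerases, clamp and clamp loader genes, the brightest probe set of Pcna rose. The other 11 of the 12 genes did not pass, where 0.286% of all genes were called higher and 0.527% lower. On that probe set the log2 intensity was 12.95 to 13.34 in wild type (median 13.15) and 13.22 to 13.59 in Nipbl+/- embryos (median 13.40). All 12 Nipbl+/- embryos exceeded the wild type mean, and the ranges overlapped only between 13.22 and 13.34. The Nipbl+/- to wild type ratio was 1.21, with a 95% interval from 1.14 to 1.29 (log2 difference 0.28 with a standard error of 0.043, limma adjusted p = 0.000772). The other Pcna probe set gave a much smaller difference. It ran from 13.03 to 13.21 in wild type (median 13.18) and from 13.14 to 13.27 in Nipbl+/- embryos (median 13.23), with 10 of 12 Nipbl+/- embryos above the wild type mean. Its log2 difference was 0.057, with a standard error of 0.028 and an interval from 0.00030 to 0.11, and it did not pass (unadjusted p = 0.049, adjusted p = 0.535 from limma). The intervals of the 2 probe sets do not overlap. Across the 24 embryos, as deviations from the mean of each genotype, they correlated at r = 0.19 (Spearman's rho 0.13), a description in which both probe sets share each array.

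The 2 Pcna probe sets also sit in different company on the array. Probe sets of this array are numbered broadly along the chromosomes, and 51 of 53 member probe sets had most of their 8 nearest named neighbours by number on the chromosome of their gene. Around the dimmer Pcna probe set, 8 of 8 neighbours were on chromosome 2, next to Pcna itself, among them Tmem230 and Prokr2. Around the brightest one, 7 of 8 were on chromosome 19, among them Ahnak and Scgb2a2, and 0 were on chromosome 2. RefSeq lists a pseudogene of Pcna, Pcna-ps2, on chromosome 19 between Ahnak and Scgb2a2 (bases 9283238 to 9284495). Another, Pcna-ps1, is on the X chromosome. Probe positions were not used here, so which of these transcripts each probe set reports cannot be told apart. The remaining exception was Cdk6, with 4 of 8 neighbours on its own chromosome.

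Without the clamp Pcna, the 11 clamp loader, polymerase and primase genes had 8 members below 0 (72.7%, against 53.5% of all genes) and a median log2 difference of -0.037. Rfc3, a small subunit of the clamp loader, ran from 10.97 to 11.31 in wild type (median 11.10) and from 10.62 to 11.13 in Nipbl+/- embryos (median 11.01). In 11 of 12 Nipbl+/- embryos it was under the wild type mean, and the lowest value again came from an array of narrow spread (log2 difference -0.14, standard error 0.05, unadjusted p = 0.0115, adjusted p = 0.296 from limma). It passed as lower when the interquartile range of each array entered the fit (adjusted p = 0.0267 from limma). Rfc5, of the same complex, had a difference of -0.054 (adjusted p = 0.738 from limma), and Rfc1, Rfc2 and Rfc4 lay between -0.038 and 0.022. The catalytic and accessory subunits Pola1, Pola2, Pold1 and Pole and the primase subunits Prim1 and Prim2 ran from -0.066 for Prim2 to 0.071 for Pola1, which is X-linked.

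The 3 genes of nucleotide supply were each slightly above 0, and 0 passed the threshold, where 0.286% of all genes were called higher and 0.527% lower. Tyms, which makes thymidylate, had a log2 difference of 0.042 (adjusted p = 0.79 from limma). Rrm1 and Rrm2, the subunits of ribonucleotide reductase, had differences of 0.042 (adjusted p = 0.777) and 0.033 (adjusted p = 0.909 from limma).

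Both E cyclins had the highest differences among cyclins and kinases of G1. Ccne1 was the 1 gene of 8 that passed, where 0.286% of all genes were called higher and 0.527% lower. Ccne1 had a log2 intensity from 11.52 to 11.69 in wild type (median 11.61) and from 11.63 to 11.85 in Nipbl+/- embryos (median 11.75). All 12 Nipbl+/- embryos exceeded the wild type mean, and the ranges met only from 11.63 to 11.69. The ratio was 1.10, with a 95% interval from 1.06 to 1.15 (log2 difference 0.14 with a standard error of 0.03, limma adjusted p = 0.0133). Over the alternative settings its adjusted p ran from 0.00185 to 0.0263. Ccne2, the second E cyclin, ran from 9.18 to 9.64 in wild type (median 9.35) and from 9.24 to 9.76 in Nipbl+/- embryos (median 9.52). Its difference was of the same size on a wider spread, and it did not pass (log2 difference 0.14, standard error 0.056, unadjusted p = 0.0177, adjusted p = 0.356 from limma). Among female embryos, 8 of wild type and 3 of Nipbl+/-, the difference was 0.17 for Ccne1 and 0.26 for Ccne2. Among male embryos, 4 of wild type and 9 of Nipbl+/-, it was 0.14 for Ccne1 and 0.07 for Ccne2, and the difference between the sexes was not tested. For the brightest Pcna probe set it was 0.25 in females and 0.29 in males.

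The D cyclins and their kinases stayed near 0. Ccnd1, Ccnd2 and Ccnd3, which answer to growth signals, had log2 differences of -0.031, -0.031 and -0.0001, the smallest p being that of Ccnd2 (adjusted p = 0.888 from limma). Their kinases Cdk4 and Cdk6 were at 0.018 and -0.0058, and Cdk2, the kinase of the E cyclins, at -0.028. The 95% interval of each of these 6 genes lay within 0.2 of 0.

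The E2F factors did not pass in either direction, where 0.286% of all genes were called higher and 0.527% lower. Of the 5, 4 lay below 0, as did 53.5% of all genes. The activators E2f1, E2f2 and E2f3 had log2 differences of 0.011, -0.059 and -0.04, and the repressors E2f7 and E2f8 of -0.041 and -0.016. The smallest adjusted p was that of E2f2, 0.807 from limma. E2f3 varied more among Nipbl+/- embryos (SD 0.17, n = 12) than among wild type embryos (SD 0.063, n = 12), and without the 3 arrays of narrowest spread its difference was 0.027. A dimmer probe set of E2f3 had a difference of 0.0015.

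**Figure D3:**
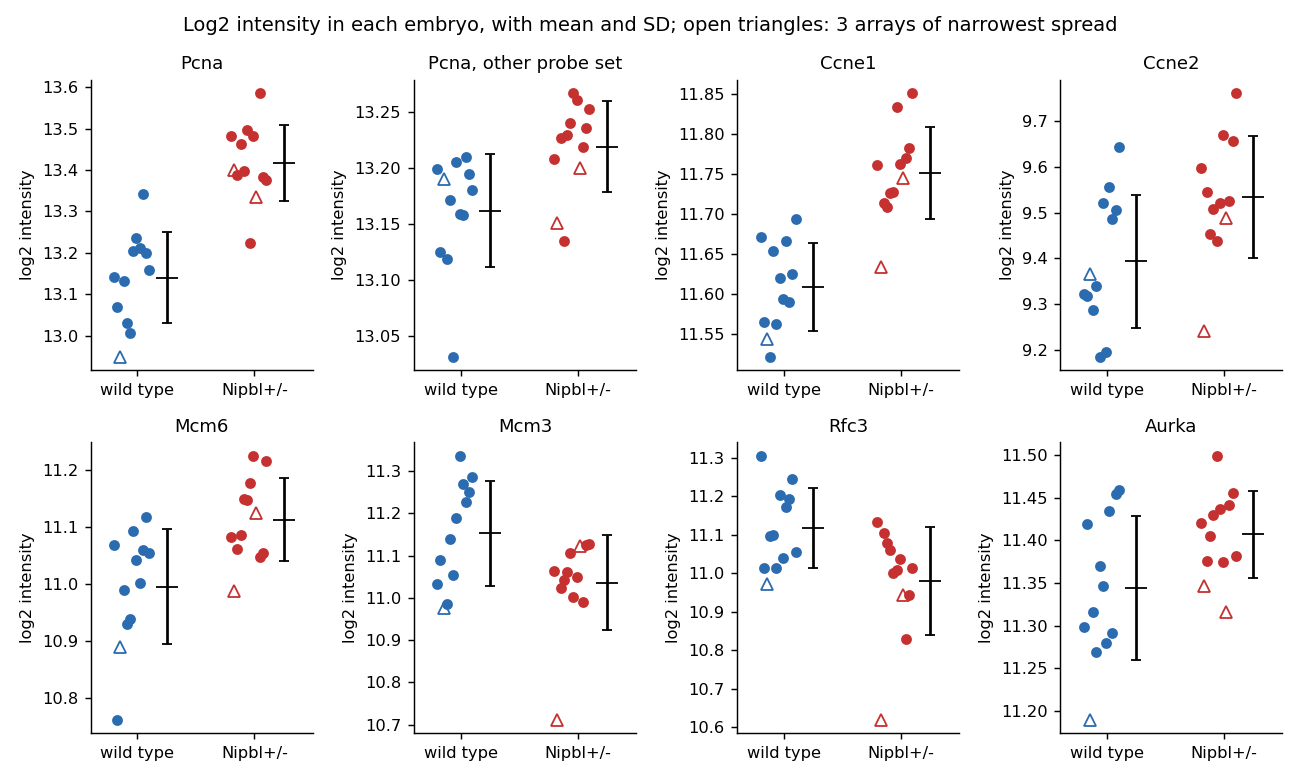
Log2 intensity by embryo, blue for the 12 of wild type and red for the 12 of Nipbl+/-, for the genes closest to or past the threshold, with both Pcna probe sets and Aurka of the G2/M genes, each panel on its own axis and the mean and SD in black. For the brighter Pcna probe set and for Ccne1 all 12 Nipbl+/- embryos were above the wild type mean, and for the other Pcna probe set 10 of 12 were. Open triangles mark the 3 arrays of narrowest spread.

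None of the 10 measured G2/M genes passed, at an adjusted or an unadjusted p under 0.05, and their differences were small in both directions. Over all genes, 0.286% were called higher and 0.527% lower, and 4.13% and 5.14% by the unadjusted p. At such shares a count of 0 among 10 genes says little about this phase. The median log2 difference was -0.011, with 4 genes above 0 and 6 below, and all 10 intervals lay within 0.2 of 0. Aurka, the kinase that matures centrosomes and the spindle, had the smallest p and ran from 11.19 to 11.46 in wild type (median 11.33) and from 11.32 to 11.50 in Nipbl+/- embryos (median 11.41). Of 12 Nipbl+/- embryos, 11 exceeded the wild type mean (log2 difference 0.063, standard error 0.034, unadjusted p = 0.0727, adjusted p = 0.609 from limma). Aurkb, the kinase of the chromosomal passenger complex, ran from 12.12 to 12.30 in wild type (median 12.19) and from 12.02 to 12.20 in Nipbl+/- embryos (median 12.17). All 12 Nipbl+/- embryos were under the wild type mean, although the medians differed little (log2 difference -0.048, standard error 0.029, unadjusted p = 0.109, adjusted p = 0.674 from limma). The cyclin Ccna2 was at 0.032 (adjusted p = 0.82 from limma), Ccnb2 at 0.0024, the kinases Cdk1 and Plk1 at -0.0075 and -0.015, and the checkpoint gene Bub1 at 0.029. Cdc20, which activates the anaphase-promoting complex, was at -0.026, the proliferation marker Mki67 at -0.018 and the topoisomerase Top2a at -0.046. The interval of Mki67 ran from -0.10 to 0.069.

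The phases did not separate by genotype. The median log2 difference was -0.0042 over the 40 replication and G1/S genes and -0.011 over the 10 G2/M genes, and the difference of the medians was -0.0072. Means per embryo gave the same picture. The mean log2 intensity of the replication and G1/S genes ran from 10.86 to 11.06 in wild type (median 11.004) and from 10.88 to 11.05 in Nipbl+/- embryos (median 11.007). That of the G2/M genes ran from 12.01 to 12.10 in wild type (median 12.06) and from 11.92 to 12.10 in Nipbl+/- embryos (median 12.06). The genotype means differed by 0.006 for replication and G1/S genes (standard error 0.023) and by -0.003 for G2/M genes (standard error 0.017), both less than their errors. Without the 3 arrays of narrowest spread these differences were 0.013 and 0.010.

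**Figure D4:**
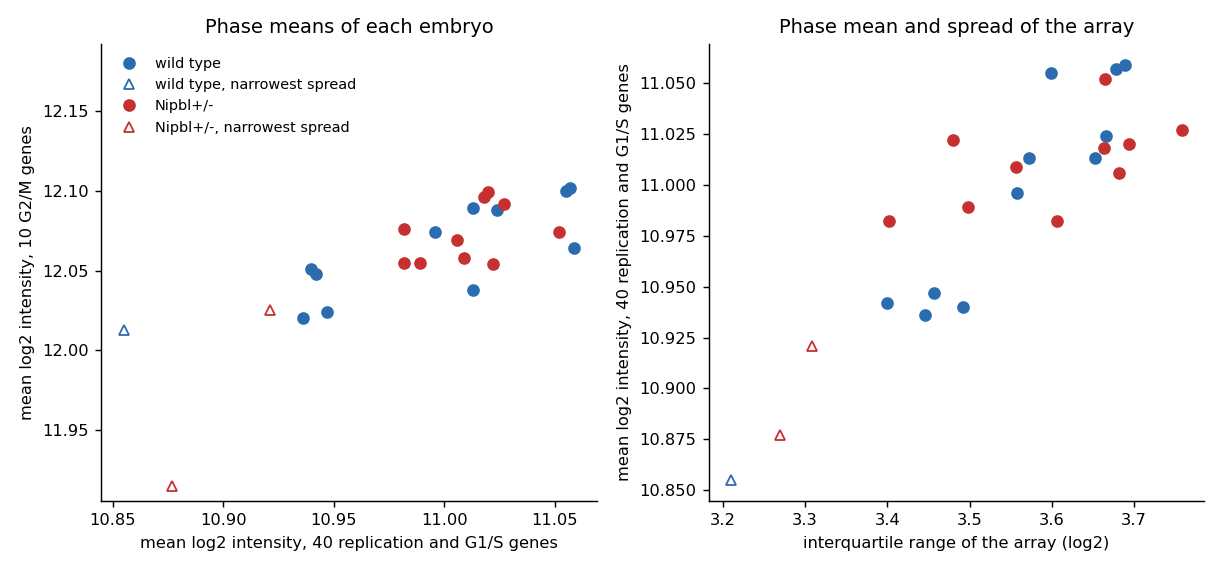
Left, mean log2 intensity of the 10 G2/M genes against that of the 40 replication and G1/S genes by embryo, blue for wild type and red for Nipbl+/-. Right, the replication and G1/S mean against the interquartile range of the array; the genotypes are mixed in both panels, and the 3 arrays of narrowest spread (open triangles) have the lowest replication and G1/S means.

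Members of the list varied together from embryo to embryo, and part of that went with the spread of the arrays. As deviations from the mean of each genotype over 24 arrays, the median Pearson correlation was 0.301 over 780 pairs of replication and G1/S genes, 0.274 over 45 pairs of G2/M genes and 0.269 over 400 pairs across the phases. Against all other genes the median was -0.011. Without the 3 arrays of narrowest spread the medians were 0.180, 0.024 and 0.126. These genes share arrays and signal range, so the values are descriptions. Among wild type embryos the SD of a G2/M gene was between 0.043 and 0.089 (median 0.073) and that of a replication and G1/S gene between 0.034 and 0.264 (median 0.094). The median over the 8419 genes of at least the mean signal of the dimmest member was 0.106.

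A further 89 genes of the same machinery came from lists not picked by their direction, although earlier results of these data were known. Of these, 0 passed the threshold, where 0.286% of all genes were called higher and 0.527% lower. Of the 89, 6 (6.74%) lay above wild type and 2 (2.25%) below by an unadjusted p under 0.05, against 4.13% and 5.14% of all genes. Of 34 further replication and S phase genes, 20 lay above 0 and 14 below, and at an unadjusted p under 0.05 there were 4 above and 1 below, with a median difference of 0.011. Dna2, a nuclease and helicase of Okazaki fragment processing, had the smallest p, and all 12 Nipbl+/- embryos exceeded the wild type mean (log2 difference 0.11, adjusted p = 0.135 from limma). Rpa1, the large subunit of the single-strand binding protein, was at -0.12 (adjusted p = 0.296 from limma). Of 30 further G2/M genes, 24 lay above 0 and 6 below with a median of 0.032, where 46.5% of all genes lay above 0, and at an unadjusted p under 0.05 there were 2 above and 0 below. Ect2, which starts the contraction of cytokinesis, was at 0.13 (adjusted p = 0.109 from limma), and Kif11, the motor that separates spindle poles, at 0.11 (adjusted p = 0.193 from limma). The 10 G2/M members, with 4 above 0, did not show that balance, and the difference between the lists was not tested. Among 25 inhibitors, pocket proteins and partners, 15 lay above 0 and 10 below, and at an unadjusted p under 0.05 there were 0 above and 1 below. That gene was Cdkn1c, the kinase inhibitor p57 (log2 difference -0.23, unadjusted p = 0.00625, adjusted p = 0.227 from limma). The next by p was Cdkn2c, which binds Cdk4 and Cdk6, at 0.13 (adjusted p = 0.58 from limma).

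Precision is limited by the number of arrays. The standard errors of the log2 differences of the members ran from 0.026 to 0.086, so a missed threshold does not show that a gene was unchanged, and the 95% intervals give the size of change that remains possible.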

How the data were processed

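RNA of 12 wild type and 12 Nipbl+/- hindlimb bud pairs was hybridised to the gene-level Affymetrix array named above, with 1 array for each embryo. GenePattern was used by the authors to pre-process the intensity files. RMA is named, with no version, in the submitters' processing notes, and the deposited values are log2 intensities. Because RMA equalizes the arrays, a shift of most genes together could be missed. Of 28159 probe sets, 21640 had 1 symbol, and the brightest over all arrays was taken per gene (19937 genes). Genotypes, from the labels, were compared with limma 3.58.1 (lmFit, eBayes) in R 4.3.3, adjusted over all genes. The step was tested on simulated data in which genes varied independently. Of added log2 changes of 0.1, 0.2, 0.3 and 0.45, it recovered 2%, 48%, 86% and 100%, with 4 false calls. Changes of 0.1 were thus mostly missed in that simulation. Its changed genes were drawn from all genes, whose median standard error was 0.0535 in the real data, against 0.0385 for the members. Recovery among the members alone was not simulated. No 2 arrays were identical (0 pairs).

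The members and lists were chosen with earlier results of these data known. Named are members past the threshold, the 3 per role with the smallest p, and for other lists the called genes and the 2 with the smallest p. Phases were compared by medians with no test. Promoters were matched by symbol, counting a gene with a match in any of its windows. Alternatives covered probe sets, dim genes, variance model, array weights, array median, spread, sex, the leading residual component, replicate number, threshold and the mean in place of the median. Leaving out the 3 arrays of narrowest spread, and the other Pcna probe set, were added after seeing the data. Figures used matplotlib 3.10.9 in Python 3.11.15.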

Additional observations from a re-analysis of the deposited data

How the results depend on the processing

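Pcna and Ccne1 were called higher under the main setting and under 10 of the 11 alternative fits, and Ccne1 alone (1 member called higher) when Pcna was taken from its other probe set, where its log2 difference was 0.057 (adjusted p = 0.535 from limma, against 4.24e-05 to 0.00394 in the other fits). The count of members called lower was 0 in all but 2 settings: it was 1, Rfc3, with the interquartile range of the array as a covariate (adjusted p = 0.0267 from limma) and 1, again Rfc3, with the leading principal component of the residuals (adjusted p = 0.0344), where Mcm6 was also called higher (adjusted p = 0.0497). E2f3, not called, changed sign to 0.027 without the 3 arrays of narrowest spread (adjusted p = 0.751 from limma). Of 199 values of 18 named genes under the alternatives, 193 kept their direction and side of the threshold. The median log2 difference ran from -0.0076 to 0.011 for replication and G1/S genes, from -0.015 to 0.0089 for G2/M genes and from -0.021 to 0.0092 for their difference. Same-numbered embryos did not go together (r from -0.355 to 0.282 over 12 pairs, 5 over 0.1), so the numbers were not taken as pairs; with a replicate block 2 members were called higher and 0 lower, with adjusted p = 0.00296 for Pcna and 0.0263 for Ccne1 from limma. At an adjusted p under 0.25, 3 members were higher and 0 lower, Mcm6 being the third. The number of arrays limits the precision, and signal over background was not used here. Over all genes, 57 were called higher and 105 lower, against 101 and 180 with array weights, 185 and 302 with the interquartile range, 222 and 293 with the residual component and 30 and 95 with the sex score.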
